A study of Drosophila melanogaster with 10 samples.

Results

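Long noncoding RNA genes were examined on Drosophila Genome 2.0 arrays of tbrd-1 mutant and wild-type testes of Drosophila melanogaster. A gene was taken when the platform annotation paired a probe set with it alone and its current symbol began with lncRNA: or asRNA:, or was CR followed by digits only. This gave 125 genes out of 11952 genes with such a probe set. They were covered by 152 of 18769 probe sets, and each gene was represented by its probe set with the brightest mean log2 signal intensity over all 10 arrays. The gene table used for current symbols holds 2730 genes that meet the symbol rule, so the array covers a small share of them.

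Testes of flies homozygous for tbrd-11, allele 1 of tbrd-1, were set against testes of w1118 flies, the wild-type, with 5 arrays per genotype. All flies were 0 to 2 days old and were kept at 25°C, and each array was made from its own pool of the testes of 25 animals. The mutant allele carries an integrated transposon with the white gene, and the sources used here do not say whether the mutant shares the remaining w1118 background. On these arrays the effects of background and of the allele thus cannot be told apart. The paper reports that a tBRD-1-eGFP transgene restored transcripts that qPCR found reduced in the mutant, such as that of Yp3. None of the noncoding RNA genes examined here was among those tested with the transgene. tbrd-1 itself, which encodes a bromodomain protein of spermatocytes, had intensities of 14, 14, 16, 15 and 10 on mutant arrays 1 to 5, against 758, 975, 692, 881 and 630 on wild-type arrays 1 to 5.

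Long noncoding RNAs are transcripts, often capped, spliced and polyadenylated like messenger RNAs, that are not translated into a known protein. Many of those annotated in the fly are transcribed mainly in the testis, where spermatocytes switch on a large set of genes found in few other tissues. Only a few have a known role, as for the roX RNAs of dosage compensation, which are not among the genes examined here.

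The label fitted most but not all of the 125 genes. The gene table annotates 97 of them as long noncoding RNAs and 14 as antisense RNAs. The other 14, those whose symbol is a CR number alone, are annotated as pseudogenes. By chromosome arm, 30 genes lie on 2L, 17 on 2R, 26 on 3L, 35 on 3R and 17 on X. In the gene table, 49 of the 125 overlap another gene, and whether their probes also match RNA of that gene was not examined. More than 1 probe set was available for 21 genes. Of 30 genes whose current symbol was reached through an old locus tag or a synonym, 28 had been listed under a CG number.

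The dissected tissue was checked with marker genes. The mean log2 intensity of 8 spermatid genes was 13.5 to 13.6 on mutant arrays and 13.3 to 13.4 on wild-type arrays. Without the spermatid gene dj (log2-fold change 1.09, SE 0.08), the means of the other 7 overlapped, at 13.82 to 13.92 on mutant arrays and 13.74 to 13.83 on wild-type arrays. Seminal fluid genes of the accessory gland, a tissue next to the testis, had means of 13.0 to 13.2 for 12 genes on mutant arrays and 13.1 to 13.2 on wild-type arrays. Digestive enzyme genes of the gut were bright on 1 mutant array and 3 wild-type arrays, and ejaculatory bulb genes on 3 mutant arrays and 2 wild-type arrays. Means of 9 muscle genes were 8.365 to 8.823 on mutant arrays and 8.822 to 9.141 on wild-type arrays, with a median log2-fold change of -0.385. Means of 6 fat body genes were 6.19 to 6.39 on mutant arrays and 6.61 to 6.96 on wild-type arrays, which rested on the yolk protein gene Yp3 (log2-fold change -3.80, SE 0.26). Without it, the means of the other 5 were 6.38 to 6.59 on mutant arrays and 6.31 to 6.50 on wild-type arrays. Likewise, means of 4 stem cell and spermatogonium genes were 5.09 to 5.49 on mutant arrays and 5.73 to 6.16 on wild-type arrays, but 5.43 to 5.90 and 5.37 to 5.87 on mutant and wild-type arrays without the transcription factor gene esg (log2-fold change -2.61, SE 0.16). The part of these tissues in the results below was not tested beyond the alternatives with gut and bulb genes. In such bulk tissue, fewer cells of a type and less RNA per cell cannot be told apart.

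Most of the noncoding RNA genes were dim in testes. Ranked by mean log2 intensity among the 18769 probe sets, they had a median percentile of 34.3 in mutant testes and 35.0 in wild-type testes, where protein-coding genes had 63.7 in mutant and 63.6 in wild-type testes. In wild-type testes 49 of the 125 lay below percentile 25 and 40 at or above percentile 50. As a gauge of dim signal, 12 eggshell genes, products of ovarian follicle cells, had a median intensity of 29.9 in wild-type testes. In both genotypes, 61 noncoding RNA genes were at or below that level, and the files hold no detection calls that would say whether such signals are above background. The 14 pseudogenes had a median wild-type percentile of 48.4, the 14 antisense RNAs 38.0 and the 97 long noncoding RNAs 34.0.

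**Figure D1:**
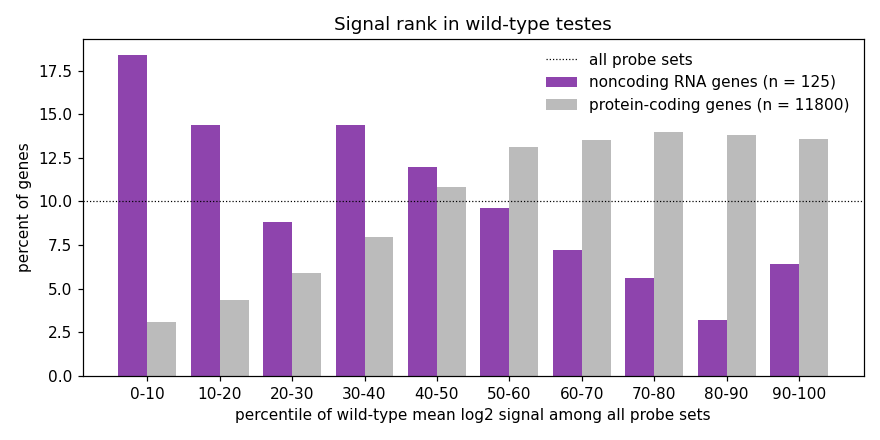
Percent of noncoding RNA genes (purple, n = 125) and of protein-coding genes (grey, n = 11800) in bins of 10 percentiles of the wild-type signal ranking of all probe sets, with a dotted line for all probe sets. The dimmest bin holds 18.4% of the noncoding RNA genes and 3.1% of the protein-coding genes, and the brightest bin holds 6.4% of the noncoding RNA genes and 13.6% of the protein-coding genes.

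A small group was among the brightest probe sets of the whole array. Of the 125 genes, 8 (6.4%) lay at or above the 90th percentile in wild-type testes, against 13.6% of protein-coding genes. Of these 8, 4 are X-linked, as are 17 of the 125. The X-linked share of all bright probe sets was not examined. The X-linked CR32652 ranked highest, with 16896, 17429, 17168, 16441 and 16696 on mutant arrays and 15295, 15555, 14648, 15260 and 15227 on wild-type arrays. It stood at percentile 99.9 in mutant and 99.8 in wild-type testes, while its other probe sets stayed at 10 to 16 on all arrays. CR42850 of 2L was at 5891 to 6343 on mutant arrays and 4845 to 6002 on wild-type arrays, and its second probe set was at 15 to 18. The probe sets of these genes thus differ widely in brightness, and the brightest one was used by rule.

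The other 3 bright X-linked genes were higher on every mutant array than on any wild-type array. CR32690 had 12969, 14738, 13042, 14013 and 13146 on mutant arrays and 8103, 8485, 7655, 8522 and 7363 on wild-type arrays, a log2-fold change of 0.76 (SE 0.06, adjusted p = 4e-06). CR33218 had 6271, 6458, 6093, 6208 and 6404 on mutant arrays and 3315, 3585, 3005, 3375 and 3504 on wild-type arrays, a log2-fold change of 0.91 (SE 0.06, adjusted p = 5.4e-07). CR32582 had 3052, 2904, 2867, 3113 and 2994 on mutant arrays and 1755, 1926, 1522, 1820 and 1985 on wild-type arrays, a log2-fold change of 0.73 (SE 0.07, adjusted p = 1.7e-05). All of these passed the adjusted p but not the fold minimum used below. CR32652 had 0.16 (SE 0.05, adjusted p = 0.02), with an adjusted p of 0.21 without the arrays bright in gut genes. Of the 17 X-linked genes, 5 were higher and 1 was lower at the adjusted p alone, near the background of 21.6% higher and 14.7% lower over all probe sets, and 0 reached the fold minimum.

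On their brightest probe set, the other bright genes showed no difference that passed the adjusted p. CR32835 of 2R was at 1590 to 1898 on mutant arrays and 1002 to 2198 on wild-type arrays, with a log2-fold change of 0.07 (SE 0.18). CR42862 of 3L was at 1026 to 1343 on mutant arrays and 785 to 1581 on wild-type arrays, with 0.12 (SE 0.18), and with gut and bulb genes as covariates it had 0.31 (adjusted p = 0.038). A dimmer probe set of CR42862 was higher on all mutant arrays, at 104 to 139 on mutant arrays and 73 to 85 on wild-type arrays, with 0.61 (SE 0.09, adjusted p = 0.0003). The pseudogene CR11023 of 2L was at 1092 to 1520 on mutant arrays and 1339 to 1702 on wild-type arrays, with -0.23 (SE 0.09, adjusted p = 0.078). The antisense RNA gene CR32252 of 3L was at 898 to 1021 on mutant arrays and 916 to 1111 on wild-type arrays, with -0.05 (SE 0.07).

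**Figure D2:**
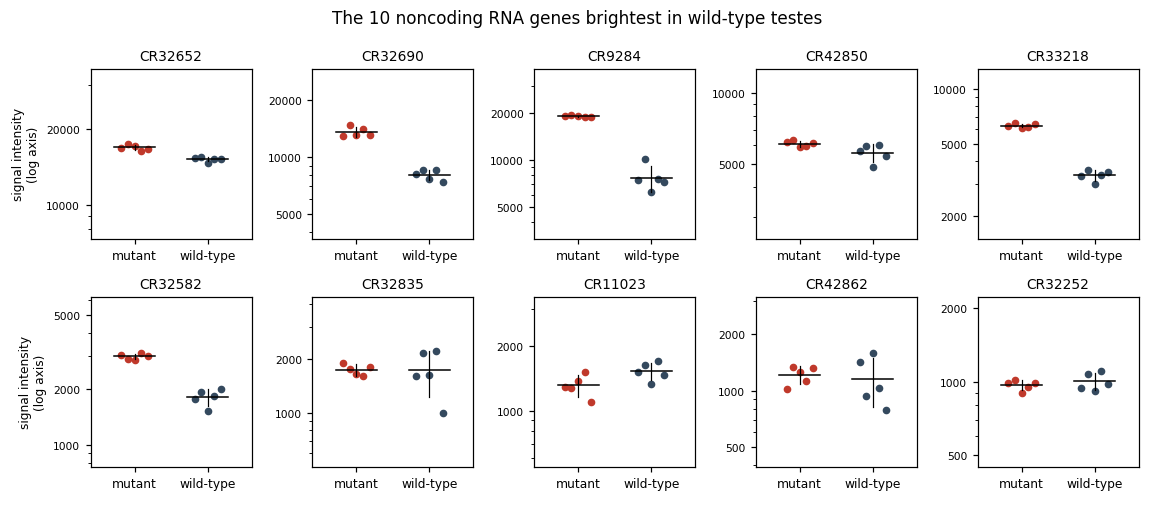
Signal intensity (log axis) of the 10 noncoding RNA genes brightest in wild-type testes, one point per array, with mutant arrays on the left and wild-type arrays on the right of each panel, and lines for the mean and SD of 5 arrays. CR32690, CR33218, CR32582, CR32652 and CR9284 are higher on every mutant array, as are 13.6% of all probe sets, and the other 5 overlap.

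To ask how these genes differed between the genotypes, mutant and wild-type testes were compared with limma over all probe sets. A gene was called when its p, adjusted by the method of Benjamini and Hochberg, did not exceed 0.05 and its log2-fold change (mutant minus wild-type) reached 1 in size, a 2-fold difference. Of the 125 genes, 7 were down-regulated (5.6%) and 5 were up-regulated (4.0%) in mutant testes. Over all probe sets 2.36% were called lower and 1.18% higher, and over protein-coding genes 3.04% and 1.37%. At the adjusted p alone 14 of the 125 were lower and 25 higher, near the background of 14.7% lower and 21.6% higher over all probe sets. All mutant arrays lay below all wild-type arrays for 11 genes (8.8%) and above them for 21 (16.8%), against 10.3% and 13.6% of all probe sets. The median log2-fold change was 0.08 for the 125 genes and 0.07 for all probe sets.

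The calls were divided by brightness, using the mean over all arrays of both genotypes. At or above percentile 50, 6 of 42 genes (14.3%) were down-regulated and 3 (7.14%) were up-regulated, where 3.29% of all probe sets were called lower and 1.8% higher. Among the 83 dimmer genes, 1 (1.2%) was called lower and 2 (2.41%) higher, where 1.43% of all probe sets were called lower and 0.554% higher. The calls above the cut do not measure how often bright genes change, since a changed gene can pass it through 1 genotype alone. CR43097, CR33948, CR43654 and CR14117 were above percentile 50 only in wild-type testes, and dntRL and CR44077 only in mutant testes. CR41601, CR31526 and CR9284 were above it in both. The shares called lower also depend on where the cut lies. CR33948 and CR43654 lay just above it, at percentiles 50.3 and 50.2, and CR44217 just below it, at 48.4. In all 12 called genes the mutant arrays lay outside the range of the wild-type arrays. None of the 14 antisense RNA genes was called at the fold minimum. With 3.54% of all probe sets called either way, these are too few genes for that count to stand apart.

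**Figure D3:**
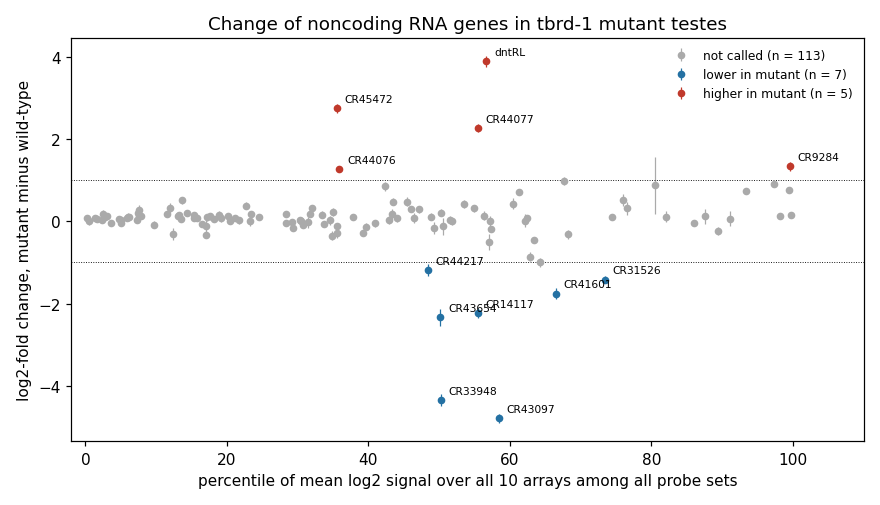
Log2-fold change (mutant minus wild-type, with standard error) of each of the 125 noncoding RNA genes against its percentile of mean signal over all 10 arrays, with dotted lines at the fold minimum. Of the 12 called genes, 7 lower in mutant testes (blue) and 5 higher (red), 9 lie at or above percentile 50.

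CR43097 and CR33948 showed the strongest decreases. CR43097, a gene of 2L, had intensities of 23, 22, 24, 30 and 26 on mutant arrays and 679, 752, 576, 779 and 682 on wild-type arrays. Its log2-fold change was -4.80 (SE 0.10, adjusted p = 1.9e-10), and it stood at percentile 30.7 in mutant and 82.3 in wild-type testes. CR33948 of 3L had 20, 14, 15, 15 and 19 on mutant arrays and 319, 359, 240, 345 and 440 on wild-type arrays, with a log2-fold change of -4.35 (SE 0.15, adjusted p = 6.7e-09). With all intensities below 32 set to 32, the changes were -4.43 for CR43097 and -3.38 for CR33948, so their size depends on how dim signals are treated. The mutant values of both were at or near the dim level of the eggshell genes. The probe sets of both, and that of CR43654, carry the suffix that Affymetrix gives to sets shared by several transcripts.

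CR43654, CR14117 and CR41601 were also down-regulated. CR43654 of 3R had 29, 34, 42, 45 and 20 on mutant arrays and 149, 197, 147, 160 and 179 on wild-type arrays, a log2-fold change of -2.34 (SE 0.20, adjusted p = 4.4e-06). The pseudogene CR14117 of 3L had 51, 42, 52, 58 and 43 on mutant arrays and 226, 248, 171, 260 and 255 on wild-type arrays, a change of -2.23 (SE 0.13, adjusted p = 2.6e-07). CR41601 of 3R had 129, 123, 98, 142 and 113 on mutant arrays and 377, 478, 297, 456 and 449 on wild-type arrays, a change of -1.76 (SE 0.14, adjusted p = 2.9e-06). In each of the 3 genes all mutant arrays lay below all wild-type arrays, although CR43654 varied from 20 to 45 among the mutant arrays.

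The group was completed by 2 smaller decreases. CR31526 of 3R had 213, 208, 216, 216 and 213 on mutant arrays and 500, 661, 488, 557 and 662 on wild-type arrays, a log2-fold change of -1.42 (SE 0.09, adjusted p = 6.1e-07). CR44217 of 2L had 42, 50, 36, 53 and 37 on mutant arrays and 95, 113, 77, 117 and 94 on wild-type arrays, a change of -1.19 (SE 0.14, adjusted p = 6.2e-05). In mutant testes CR31526 stood at percentile 66.4 and CR44217 at percentile 42.6.

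The largest increase was that of dntRL, a long noncoding RNA gene of 2R listed on the array as CR44101. It had intensities of 465, 557, 340, 439 and 440 on mutant arrays and 29, 29, 29, 37 and 26 on wild-type arrays, a log2-fold change of 3.89 (SE 0.13, adjusted p = 3.2e-09). The gene stood at percentile 76.6 in mutant testes and 36.0 in wild-type testes, where its signal was near the eggshell median. CR45472 of 2R, listed as CR43790, had 76, 68, 82, 92 and 71 on mutant arrays and 10, 12, 12, 10 and 14 on wild-type arrays. Its log2-fold change was 2.75 (SE 0.11, adjusted p = 1.6e-08), but with a floor of 32 set under all intensities it was 1.27, since the wild-type values lie below that floor.

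CR44076 and CR44077 follow each other in the gene order of 2L, next to slp1, a segmentation transcription factor gene, and both were up-regulated. CR44077 had 255, 212, 223, 251 and 225 on mutant arrays and 47, 55, 41, 45 and 56 on wild-type arrays, a log2-fold change of 2.26 (SE 0.10, adjusted p = 2.3e-08). CR44076 had 46, 46, 44, 53 and 47 on mutant arrays and 18, 20, 21, 21 and 18 on wild-type arrays, a change of 1.27 (SE 0.07, adjusted p = 2.3e-07). With the floor of 32, CR44076 changed by 0.56 and was no longer called. slp1 was not measured by a probe set of its own here.

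CR9284, a gene of 2R, was the only up-regulated gene that was bright in wild-type testes. It had 19161, 19443, 19411, 19103 and 19107 on mutant arrays and 7431, 10109, 6259, 7593 and 7203 on wild-type arrays, a log2-fold change of 1.34 (SE 0.10, adjusted p = 2.7e-06). In mutant testes 8 probe sets were brighter, the highest intensity being 25679 on mutant arrays and 25182 on wild-type arrays, and whether the top of the intensity range limited the mutant values was not tested.

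**Figure D4:**
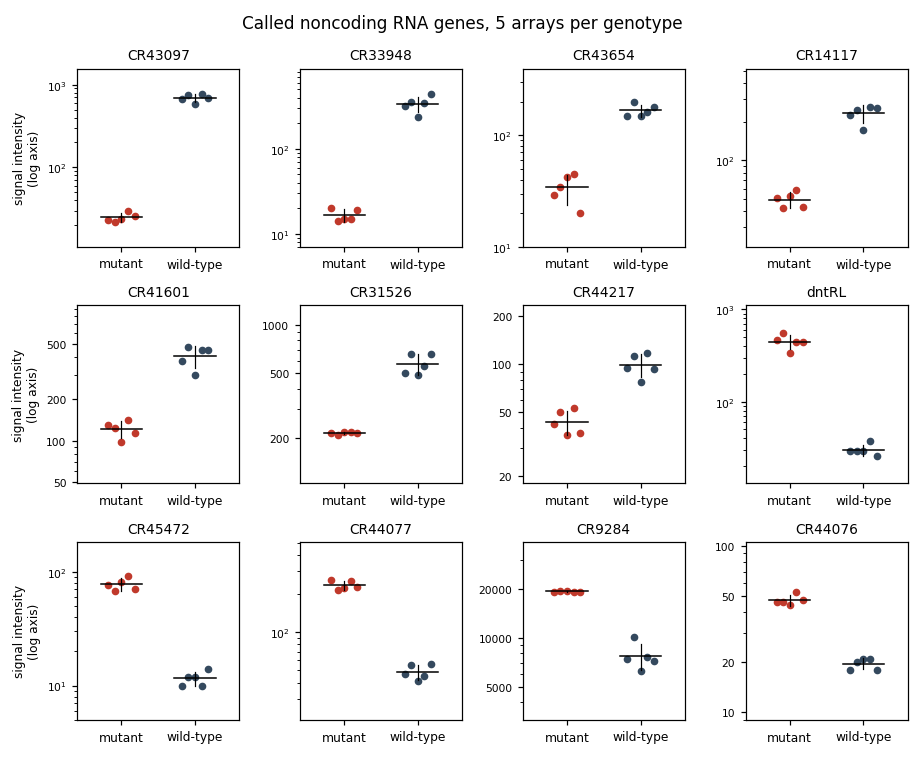
Signal intensity (log axis) of the 12 called noncoding RNA genes, one point per array, with mutant arrays on the left and wild-type arrays on the right of each panel, and lines for the mean and SD of 5 arrays. In all 12 panels the genotypes do not overlap.

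Below the fold minimum, 7 further genes were lower and 20 were higher at the adjusted p alone. The antisense RNA gene CR42254 of 2R came closest among the lower ones, at 118 to 160 on mutant arrays and 223 to 317 on wild-type arrays, a log2-fold change of -0.997 (SE 0.11, adjusted p = 3e-05), just short of the minimum. The pseudogene CR7448 had -0.86 (SE 0.11) on its brighter probe set, whereas its second one was at 59 to 80 on mutant arrays and 56 to 77 on wild-type arrays. The antisense RNA gene CR43476 had -0.46 (SE 0.07). Among the higher ones, CR40053 of 3L was at 287 to 379 on mutant arrays and 147 to 205 on wild-type arrays, a log2-fold change of 0.98 (SE 0.11, adjusted p = 3.2e-05). CR32027 had 0.85 (SE 0.12), the antisense RNA gene CR31845 had 0.72 (SE 0.08). CR43453 had 0.51 (SE 0.09), but its values of 15 to 18 on mutant arrays and 10 to 13 on wild-type arrays all lay below the floor of 32, with which the change was 0.0.

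Few of the genes carry a name other than a CR number. iab8, a noncoding RNA of the bithorax complex known from the nervous system and the accessory gland, was at 23 to 25 on mutant arrays and 23 to 28 on wild-type arrays, and its other 4 probe sets were at 13 to 24 on mutant arrays and 12 to 20 on wild-type arrays. Of these 4, one was higher on all mutant arrays (0.32, SE 0.07, adjusted p = 0.0063) and another had 0.19 (SE 0.06, adjusted p = 0.023). cherub, known from tumours derived from neural stem cells, was at 18 to 21 on mutant arrays and 15 to 19 on wild-type arrays. Eig63F-2, from an ecdysone-induced gene pair, and noe were dim as well, at 14 to 16 and 7 to 8 on mutant arrays and at 14 to 16 and 7 to 9 on wild-type arrays. mimi was brighter, at 139 to 206 on mutant arrays and 118 to 203 on wild-type arrays. On the probe set used, none of these passed the adjusted p.

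The alphagamma-element, a heat-inducible transcript from the Hsp70 region, varied most among replicates. It had 2216, 1094, 944, 1068 and 140 on mutant arrays and 1164, 412, 211, 752 and 217 on wild-type arrays, a log2-fold change of 0.87 (SE 0.70, adjusted p = 0.35). Without mutant replicate 5 the change was 1.51 with an adjusted p of 0.047. Heat shock chaperone genes of the Hsp70 family also varied among replicates. A probe set shared by Hsp70Aa and Hsp70Ab had 241, 160, 423, 276 and 345 on mutant arrays and 861, 279, 148, 124 and 191 on wild-type arrays. Mutant array 1, the brightest for the alphagamma-element, was not the brightest there. Wild-type array 1 was the brightest wild-type array both for the alphagamma-element and for this probe set. Whether the alphagamma-element and the Hsp70 genes vary together was not tested. The other 4 probe sets of this family were at 13 to 978, 85 to 213, 217 to 484 and 7 to 9 on mutant arrays and at 26 to 4576, 73 to 326, 146 to 640 and 7 to 8 on wild-type arrays. That with the widest range is also paired with CG31343. Its highest values were on the arrays bright in gut genes, mutant array 3 (978) and wild-type arrays 1, 3 and 4 (3634, 4576 and 1767). Its range may therefore not be that of Hsp70 RNA, which was not tested.

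Protein partners of well-known noncoding RNAs were measured alongside. Of 6 dosage compensation complex genes, whose proteins act with the roX RNAs, 6 were measured and 0 called. Of 4 genes for the hnRNPs of omega speckles, 3 were measured and 0 called, and of 7 snoRNP core protein genes 4 were measured and 0 called. With 2.36% of all probe sets called lower and 1.18% higher, these counts do not stand apart from the background. For the bithorax complex genes 0 of 3 were measured.

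The neighbours of the 12 called genes were looked up to see whether they changed too. In the gene table, 23 of their 28 neighbouring or overlapping genes had a probe set, and 21 of these were not themselves noncoding RNA genes of the list. Of the 21, 0 were called in either direction by limma, 5 were higher and 3 were lower at the adjusted p alone. These counts are near the background over all probe sets, of which 1.18% were called higher and 2.36% lower, and 21.6% were higher and 14.7% lower at the adjusted p alone. The gene sick, which overlaps CR43097, had a log2-fold change of 0.24 (SE 0.06), against -4.80 for CR43097. Cul6, a cullin gene that overlaps CR14117, had -0.56 (SE 0.10), and MICAL-like, after it, had -0.61 (SE 0.10), both in the direction of CR14117 but smaller. Usp12-46, a ubiquitin protease gene before CR43654, had 0.48 (SE 0.08), opposite to CR43654. CG17486 and CG17883 on either side of dntRL had 0.08 (SE 0.05) and 0.22 (SE 0.06). The gene tpr, before CR9284, had -0.66 (SE 0.15), opposite to CR9284. CG13492, after CR9284, had -2.57 (SE 0.98, adjusted p = 0.061) and was spread widely among arrays of both genotypes.

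**Figure D5:**
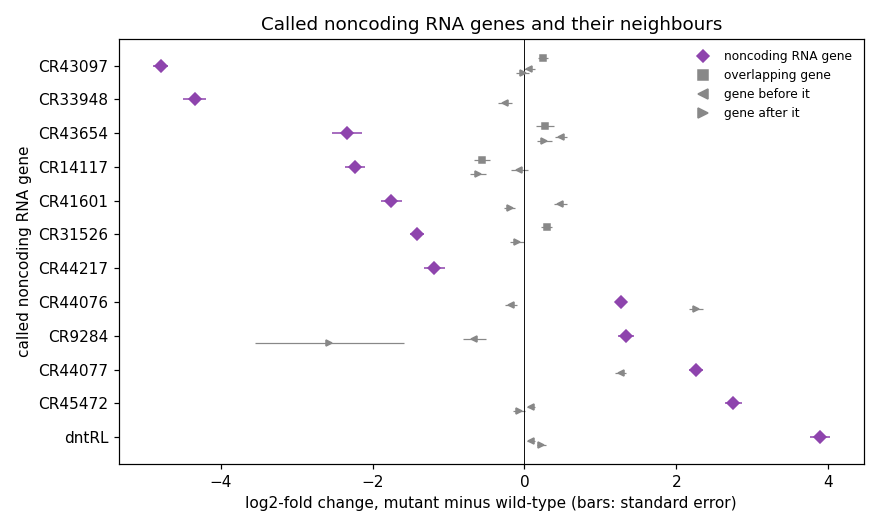
Log2-fold change (mutant minus wild-type, with standard error) of each of the 12 called noncoding RNA genes (purple diamonds) and of its measured overlapping gene (square) and neighbours (triangles) in grey. Apart from CR44076 and CR44077, which are neighbours of each other, no neighbour was called.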

How the data were processed

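Total RNA of 5 mutant and 5 wild-type testis pools was hybridised to 1-colour Affymetrix arrays. The authors deposited 1 table of linear signal intensity values, made with RMA in Affymetrix Expression Console per the labels, whose versions the sources used here do not give. RMA corrects the background, quantile normalizes the arrays and summarizes the probes, which compresses dim signals. The deposited intensity values are whole numbers and hold no detection calls, and precision is limited by the number of arrays.

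After 183 control probe sets of 18952 were left out, log2 of 18769 probe sets was fitted with limma 3.58.1 (lmFit, eBayes) in R 4.3.3, with genotype as the only term. P-values were adjusted over all of them. The fit was tested on simulated data, and figures were made in Python 3.11.15 (matplotlib 3.10.9). Symbols came from the platform annotation, updated with a gene table of Release 6 of the assembly, which for 83 probe sets needed an old locus tag or a synonym. The files name no assembly, so no coordinates are given.

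The members and the gene lists were chosen with earlier results of these data known. The genes named were those called, those with a symbol other than a CR number, the 10 brightest in wild-type, the 10 lowest adjusted p below the fold minimum, and the neighbours of called genes. Alternatives were the methods' t-test, other priors, array weights, filters, a floor of 32, median centring, other fold minimums and probe set choices, the replicate number as a block, arrays left out, and gut and bulb genes as covariates. Chosen after seeing the data were naming through the Entrez ID alone and leaving out pseudogenes.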

Additional observations from a re-analysis of the deposited data

Results flagged for a closer look

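1 of 68 genotype groups examined among the named genes held an array far from the other 4. For dntRL, wild-type replicate 4 had an intensity of 37, and the other wild-type arrays 26 to 29. Its gap to the nearest array was 0.727 of the range of the group, above the critical value of 0.71. Chance alone flags about 1 in 20 groups. The mutant arrays were at 340 to 557, and the call did not depend on any single array.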

How the results depend on the processing

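All 12 called genes kept their direction under all 22 alternatives run for each, and their call too, except CR44076 with a floor of 32 (0.56). With no fold minimum, 14 genes were lower and 25 higher, and at a log2 minimum of 0.5, 13 were higher. Over 95 genes named through the Entrez ID alone, 3 were higher. The median log2-fold change of 0.083 became 0.0 with the floor of 32, where many dim values are tied, 0.19 with median centring (all probe sets 0.17), which shifts the genotypes by -0.104 against each other, and 0.044 without the arrays bright in gut genes (all probe sets 0.038). The median wild-type percentile of 35.0 was 17.5 among 1 probe set per gene, 33.4 over the mean of all probe sets of a gene and 34.0 without pseudogenes. With each array left out in turn, 7 to 8 genes were lower and 5 to 6 higher, the median change was 0.073 to 0.109 and the percentile 34.5 to 35.2. CR42254 was called under 7 alternatives, at -1.11 without the arrays bright in bulb genes, and CR40053 under 5. CR7448 was called without the gut-bright arrays (-1.05) and CR33218 with median centring (1.01). Among genes below the fold minimum, the adjusted p was lost by CR43476 (0.06) and CR43453 (0.11) without the arrays bright in bulb genes, by CR43453 (1.0) with the floor, and by CR32652 under 4 alternatives (0.064 to 0.21). With the replicate number as a block, 7 genes were lower, 5 higher and the median change was 0.083. Deviations of same-numbered arrays correlated at -0.31 to 0.48 and none correlated best with its own number. The part of gut and bulb tissue in these correlations was not tested, so the check cannot exclude that the numbers pair the arrays. The cause of the differences between alternatives was not tested. Dim signal limits the genes at or below the eggshell level.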
